A study of Mus musculus with 15 samples.

Results

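The nuclear genes of the respiratory chain and the ATP synthase were examined in the cortex of wild-type and Snord116del mice in the light and in the dark. They were chosen by symbol alone: every gene of the RNA-sequencing table whose symbol begins with Nduf, Cox4 to Cox8, Uqcr or Atp5 was taken, which gave 86 of 23235 genes. Of these, 38 carry a symbol of a complex I (NADH dehydrogenase) subunit, 8 of complex III (the cytochrome bc complex), 18 of complex IV (cytochrome c oxidase) and 15 of the ATP synthase. Another 4 encode complex I assembly factors (Ndufaf1 to Ndufaf4), and 3 (Cox4nb, Atp5s and Atp5sl) share the start of a symbol but encode no subunit.

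Wild-type (WT) C57BL/6J mice were compared with B6(Cg)-Snord116tm1.1Uta/J mice, here Snord116del, which lack the Snord116 cluster, with its host transcript 116HG, on the paternally inherited allele (+/-). The animals were adult males kept with lights on from 6 am to 6 pm, and cortex was collected at Zt +6, which lies in the light phase (3 WT and 2 Snord116del mice), and at Zt +16, in the dark phase (2 WT and 2 Snord116del mice). The deletion is constitutive, so it is carried by every cell of the cortex and of the body. The table holds 1 Cuffdiff FPKM value (fragments per kilobase of transcript, scaled to the size of the library) for each gene and group, so its values give no spread between mice and no SD, and no test was run here; the authors' own test columns were not used, and the table carries no read counts. Separate chromatin libraries, in which DNA bound to the 116HG transcript was captured from brain (ChIRP), came as lists of peaks.

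The mitochondrial respiratory chain passes electrons from NADH and succinate to oxygen and pumps protons across the inner membrane, and the ATP synthase uses the returning protons to make ATP. Complexes I, III and IV and the ATP synthase are each built from nuclear and mitochondrial gene products, whereas complex II is built from nuclear gene products only. In the brain this system supplies most of the ATP used for ion pumping and synaptic transmission. Only nuclear genes are described here, and the mitochondrially encoded subunits were not analysed here.

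Nuclear respiratory factor 1 (NRF1) is known for binding promoters of many of these genes, and its palindromic motif of 10 bases had the highest ratio of its share here to its share among all promoters of the 8 motifs searched. Promoters (250 bases before to 50 after the start, RefSeq, GRCm38.p6) were matched for 71 of the 86 genes, and 6 of the 71 (8.45%) held an exact match, against 1.07% of 27025 genes. The 5 stretches of 50 bases below are shown because they are the only ones found with the motif wholly before the start site. At Zt +6, Atp5g2, Atp5k, Cox6a1 and Ndufa11 were lower in Snord116del than in WT mice, and Ndufaf4 was higher. The motif is spelled out in capitals, and each stretch is written 5′ to 3′ on the gene's own strand.
Atp5g2 (chr15:102671060-102671109, minus strand): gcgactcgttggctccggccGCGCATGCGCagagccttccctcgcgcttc
Atp5k (chr5:108434420-108434469, minus strand): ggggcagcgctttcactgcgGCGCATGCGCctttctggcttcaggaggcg
Cox6a1 (chr5:115349091-115349140, minus strand): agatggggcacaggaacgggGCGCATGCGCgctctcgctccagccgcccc
Ndufa11 (chr17:56717682-56717731, plus strand): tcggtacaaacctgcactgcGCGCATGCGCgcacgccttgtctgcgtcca
Ndufaf4 (chr4:24897950-24897999, plus strand): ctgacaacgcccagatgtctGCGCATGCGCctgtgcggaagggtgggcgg
The first base of the motif lay 42 bases before the start in Atp5g2, 50 in Atp5k, 162 in Cox6a1, 60 in Ndufa11 and 113 in Ndufaf4. The other gene with the motif was Uqcrc1, where it lay after the start. The ETS-type motif CCGGAAG, bound by GABP, was found on either strand in 15 promoters (21.1%, against 9.93% of all genes) and the YY1 motif AAGATGGCG in 8 (11.3%, against 1.64%). The TATA box TATAAA was in 7 (9.86%, against 15.7%). For the others the shares were 21.1% against 19.6% for the SP1 motif GGGCGGGG, 5.63% against 2.03% for the cyclic AMP response element TGACGTCA, 9.86% against 8.09% for the E-box CACGTG and 1.41% against 0.466% for the ERR motif TCAAGGTCA. These are letter matches and say nothing of whether a factor was bound.

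The genes differed widely in level, and the subunits of complex IV were the most abundant. In WT cortex at Zt +6, Cox6a1, a small subunit of complex IV, had the highest FPKM of any gene in the table (1610 FPKM, rank 1). Over genes averaging 1 FPKM or more, the median of complex I was 70.9 FPKM, against 134 for complex III, 228 for complex IV and 150 for the ATP synthase. Together the 86 genes made up 9.45% of the summed FPKM of all genes in WT mice at Zt +6 and 4.35% in Snord116del mice at that time. At Zt +16 they made up 11.2% in WT and 12.5% in Snord116del mice. Among the 100 most abundant genes of each group, 18 were of this set in WT and 8 in Snord116del mice at Zt +6, and 19 and 20 at Zt +16. The spread of levels within complex I, given as the SD of log2(FPKM + 1) over its tested genes, was also smallest in Snord116del mice at Zt +6 (1.12, against 1.58, 1.82 and 1.85 in WT Zt +6, WT Zt +16 and Snord116del Zt +16), as was the spread over all tested genes (1.38, against 1.54, 1.74 and 1.87).

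**Figure D1:**
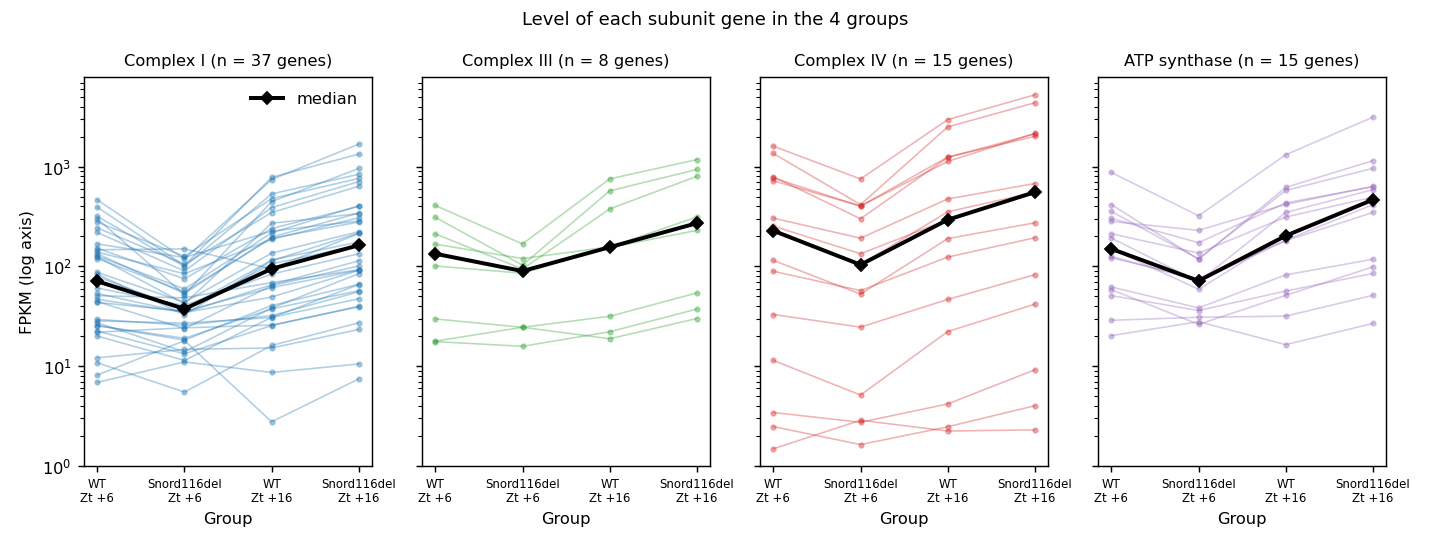
FPKM (log axis) of each subunit gene in the 4 groups, by complex, for genes whose mean reached 1 FPKM; a thin line joins the values of 1 gene and the black line joins the medians. In each complex the median is lowest in Snord116del at Zt +6 (37.5 FPKM in complex I) and highest in Snord116del at Zt +16 (163 FPKM).

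For the comparisons, 82 of the 86 genes had a mean of 1 FPKM or more over the 4 groups, as did 10297 genes in all. Cox4i2, Cox7b2, Cox8c and Ndufa4l2 did not. A gene was called higher or lower where FPKM + 1 was at least 1.5 times as high in one group as in the other, and reached 1 FPKM or more in the group with more. This is a rule of size, and no call below was tested against the spread between mice. Because the groups differ in the level of the typical gene, each median is given beside that of all tested genes. Summed FPKM was 159300 and 160199 in WT and Snord116del mice at Zt +6, and 216422 and 342188 at Zt +16.

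At Zt +6, the respiratory chain genes were lower in Snord116del than in WT cortex while most genes were higher. Of the 82 genes, 49 were called lower (59.8%) and 6 higher, against 7.62% of all tested genes called lower and 49.3% called higher. The median log2 difference was -0.73 for the set and 0.57 for all tested genes, a gap of -1.30. Complex IV had 11 of 15 tested genes lower (median -0.91), the ATP synthase 11 of 15 (-0.81) and complex I 23 of 37 (-0.86). In complex III, 3 of 8 were lower (-0.37). In bulk cortex, fewer cells of a type and less RNA per cell cannot be told apart.

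The 5 genes with the largest differences toward lower levels were Ndufb2, Ndufc1, Ndufb4, Atp5d and Cox6c. Ndufb2, an accessory subunit of the membrane arm of complex I, stood at 300 FPKM in WT and 52.2 FPKM in Snord116del mice at Zt +6 (log2 difference -2.50), and at 447 and 961 FPKM at Zt +16. Ndufc1, another accessory subunit of complex I, was at 466 and 119 FPKM at Zt +6 (-1.96), and Ndufb4 at 393 and 102 FPKM (-1.93). All 3 belong to the accessory part of complex I, which surrounds the catalytic core. Atp5d, the delta subunit in the central stalk of the ATP synthase, was at 417 and 118 FPKM (-1.81). Cox6c of complex IV was at 1360 and 417 FPKM (-1.70).

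The 6 genes called higher in Snord116del mice at Zt +6 were all of low abundance. Ndufaf4, a complex I assembly factor, was at 1.77 FPKM in WT and 7.80 FPKM in Snord116del mice (1.67). Ndufa10, a complex I subunit of the matrix side, was at 8.14 and 18.0 FPKM (1.06). Atp5s, a coupling factor that is no subunit, was at 1.48 and 3.53 FPKM (0.87), and Cox4nb, whose product belongs to a membrane protein complex of the endoplasmic reticulum, at 2.97 and 5.38 FPKM (0.68). Cox6a2, the muscle isoform of Cox6a1, was at 1.48 and 2.86 FPKM (0.64), and Ndufs1, the largest core subunit of complex I, at 6.87 and 11.0 FPKM (0.61).

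The size of the difference at Zt +6 went with the level of the gene. To keep the level apart from the values compared, genes were ordered by FPKM in WT mice at Zt +16, a group that does not enter the comparison at Zt +6. Of 38 genes at 150 FPKM or more, 34 were called lower (median -1.13), of 25 genes between 30 and 150 FPKM 12 were (-0.57), and of 19 genes under 30 FPKM 3 were (0.25). Among all tested genes at 150 FPKM or more, 149 of 219 (68.0%) were called lower, with a median of -0.83, as were 39% between 30 and 150 FPKM (-0.40) and 3.93% under 30 FPKM (0.64). Spearman's rho between the level and the difference was -0.79 across the 82 genes and -0.53 across all tested genes. Genes are not independent replicates and share the same libraries, so these are descriptions.

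The genes are also short, and the difference at Zt +6 followed transcript length over the whole table. The median coding transcript of a gene in the set was 680.5 bases long, against 2227 bases for tested genes, and rho between length and difference was 0.31 in the set and 0.53 over all tested genes with a length. Up to 600 bases, the median difference was -0.92 for 29 genes of the set and -0.21 for all 389 tested genes. Between 600 and 1000 bases it was -1.01 for 29 genes of the set and 0.01 for 1335 genes, and between 1000 and 2000 bases -0.28 for 18 and 0.26 for 2795. Over 2000 bases it was -0.01 for 6 genes of the set, 3 called lower and 3 higher, and 0.83 for 5646 genes. Ndufb2, called lower, falls there through a median of 2413 bases over its coding transcripts. Its transcript with the longest coding part has 455 bases, so its length is uncertain. With the trend of the difference on length subtracted, 50 genes of the set were called lower and 3 higher (median -0.74, against 0.00 for all genes, of which 15.5% were lower and 15.3% higher). With the trend on the longest annotated transcript instead, an alternative chosen after the data were seen, 31 were lower and 5 higher (-0.46), against 13.4% and 12.7% of all genes.

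**Figure D2:**
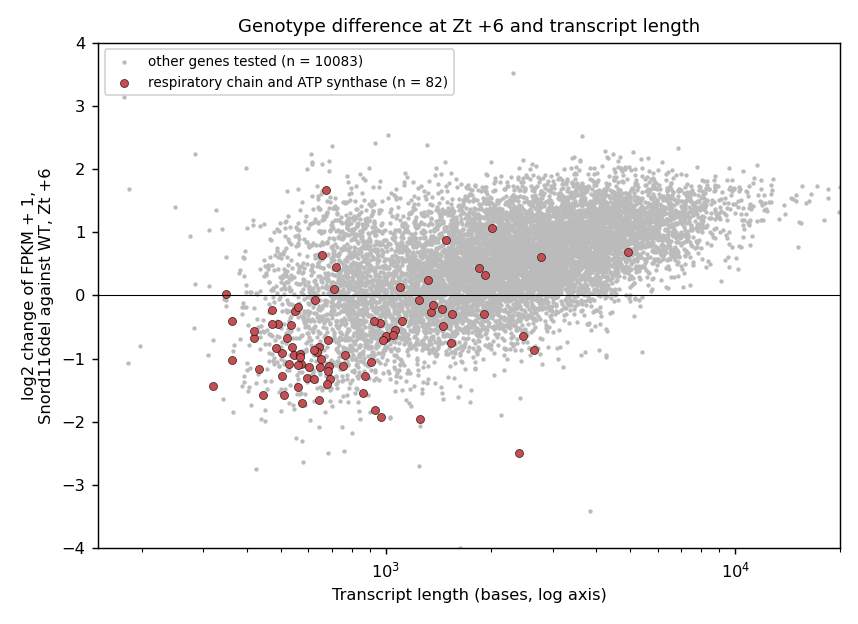
Log2 difference of FPKM + 1 between Snord116del and WT at Zt +6 against transcript length (bases, log axis) for the 82 tested genes of the set (red) and 10083 other tested genes with a length (grey, 27 of them outside the axes). The 29 red points up to 600 bases have a median of -0.92, below that of all 389 tested genes there (-0.21).

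At Zt +16 the difference between genotypes had the opposite sign. In Snord116del mice 62 of the 82 genes were called higher and 0 lower, against 19.0% of all tested genes higher and 0.204% lower. All 82 log2 differences were above 0, with a median of 0.70 against 0.35 for all tested genes, a gap of 0.35. By complex, 31 of 37 genes were higher in complex I (median 0.71), 7 of 8 in complex III (0.72), 11 of 15 in complex IV (0.79) and 12 of 15 in the ATP synthase (0.73). These calls rest on the scale of the Snord116del Zt +16 group, whose summed FPKM was the largest: after scaling to equal totals 1 gene of the set was called higher (median 0.05, all tested genes -0.11), and after scaling to equal medians 11 were (0.24, against 0.01).

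The 5 largest differences at Zt +16 were those of Atp5k, Atp5g1, Ndufc1, Atp5e and Ndufa10. Atp5k, the e subunit in the membrane part of the ATP synthase, was at 1320 FPKM in WT and 3140 FPKM in Snord116del mice (1.24), after 876 and 322 FPKM at Zt +6. Atp5g1, which encodes the c subunit of the proton-driven ring, was at 203 and 467 FPKM (1.20). Ndufc1 was at 745 and 1690 FPKM (1.18). Atp5e, the epsilon subunit of the central stalk, was at 183 and 417 FPKM (1.18), and Ndufa10 at 2.76 and 7.44 FPKM (1.17). Ndufa10 was the only gene of the 82 called higher in Snord116del mice at both times.

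Read together, 42 of the 82 genes (51.2%) were called lower in Snord116del mice at Zt +6 and higher at Zt +16, against 4.55% of all tested genes. These comparisons share no group. The order Snord116del Zt +6, WT Zt +6, WT Zt +16, Snord116del Zt +16, from lowest to highest, held for 66 of the 82 genes (80.5%), against 19.2% of all tested genes. Of the 82, 69 were lowest in Snord116del at Zt +6 and 76 highest in Snord116del at Zt +16. These counts of 69 and 76 were not set beside all tested genes, and Snord116del at Zt +16 had the largest summed FPKM (342188). They and the count of 66 were not repeated on other scales. The count of 42 fell to 10 with the groups scaled to the same median and to 0 with the groups scaled to the same total, where 1 gene was left as higher at Zt +16.

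**Figure D3:**
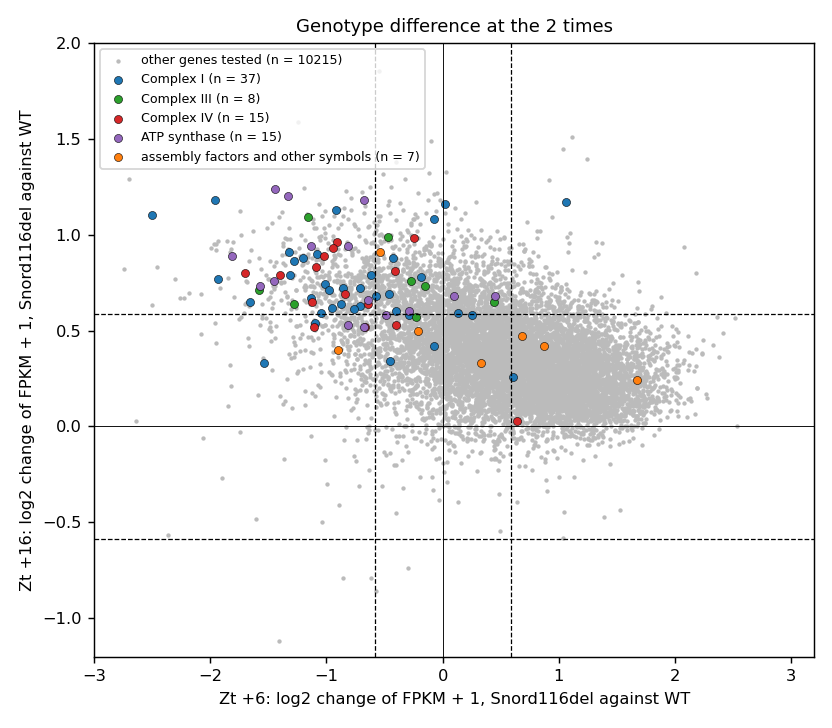
Log2 difference of FPKM + 1 between Snord116del and WT mice at Zt +6 (horizontal) and at Zt +16 (vertical) for the 82 tested genes, coloured by complex, over 10215 other tested genes (grey, 40 of them outside the axes); dashed lines mark 1.5-fold. The 42 coloured points in the upper left field are lower at Zt +6 and higher at Zt +16.

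Between the times of day, more genes of the set were called higher than lower at Zt +16 in both genotypes. In WT mice 28 were called higher and 2 lower, against 5.71% and 10.3% of all tested genes, with a median of 0.52 for the set and -0.04 for all genes. By complex, 12 of 37 were higher in complex I, 4 of 8 in complex III, 8 of 15 in complex IV and 3 of 15 in the ATP synthase. With the groups scaled to the same total, 1 was higher and 5 lower, against 0.474% and 28.2% of all tested genes. With the groups scaled to the same median, 47 were higher and 1 lower, against 11.0% and 9.47%.

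In WT mice Ndufa8, a complex I subunit of the space between the membranes, had the largest difference toward higher levels, with 125 FPKM at Zt +6 and 271 FPKM at Zt +16 (1.11). Ndufb4 followed with 393 and 784 FPKM (1.00), and then Cox7a1, the heart and muscle isoform of a complex IV subunit, with 11.4 and 22.2 FPKM (0.90). Cox6a1 was at 1610 and 2970 FPKM (0.89) and Cox6c at 1360 and 2510 FPKM (0.89). The 2 genes called lower at Zt +16 were Ndufa10, at 8.14 and 2.76 FPKM (-1.28), and Ndufa3, at 147 and 94.7 FPKM (-0.63).

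In Snord116del mice 72 of 82 genes were called higher at Zt +16 and 3 lower, against 25.0% and 39.1% of all tested genes. The median was 1.87 for the set and -0.24 for all genes, a gap of 2.11, and complex IV had the highest median of the complexes (2.32). With the groups scaled to the same total 51 were higher and 9 lower, against 7.96% and 67.7% of all tested genes. This comparison shares its groups with those between genotypes, so its values are not independent of them. Ndufb2 was at 52.2 FPKM at Zt +6 and 961 FPKM at Zt +16 (4.18), Ndufc1 at 119 and 1690 FPKM (3.82) and Ndufb4 at 102 and 1340 FPKM (3.70). Cox6c was at 417 and 4390 FPKM (3.39), Atp5k at 322 and 3140 FPKM (3.28) and Atp5d at 118 and 1150 FPKM (3.28). The 3 genes called lower were Ndufaf4, at 7.80 and 1.54 FPKM (-1.80), Ndufa10, at 18.0 and 7.44 FPKM (-1.17), and Atp5s, at 3.53 and 1.90 FPKM (-0.64).

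Within complex I, the core subunits carry the flavin and the iron-sulfur clusters, and the accessory subunits surround them. Of 7 core genes, 2 were lower and 1 was higher at Zt +6 (median -0.40), and of 29 accessory genes, 21 were lower and 1 was higher (-0.95). This difference between core and accessory genes was not tested, and the core genes also had the lower median level in WT mice at Zt +6 (43.6 FPKM, against 83.5 FPKM). Ndufs7, a core subunit next to the quinone site, was the core gene with the largest difference, at 219 FPKM in WT and 89.9 FPKM in Snord116del mice at Zt +6 and 390 and 710 FPKM at Zt +16. Ndufs3 was at 53.5 and 34.4 FPKM at Zt +6 (-0.62). Ndufv1, which binds NADH and the flavin, was at 21.9 and 24.2 FPKM (0.13), and Ndufv2 at 25.4 and 19.0 FPKM (-0.40). Ndufs8, at 46.8 and 34.5 FPKM (-0.43), was not called at Zt +6 either. The complex I genes with the highest mean levels were Ndufc1, Ndufb4 and Ndufv3, and Ndufv3, a small subunit of the NADH-binding module, was at 318 and 99.7 FPKM at Zt +6 (-1.66).

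In complex III, the 3 most abundant genes were the 3 called lower at Zt +6, and each encodes a small subunit. Uqcrq was at 409 and 168 FPKM at Zt +6 (-1.28) and 756 and 1180 FPKM at Zt +16, Uqcr11 at 311 and 103 FPKM (-1.58) and Uqcr10 at 212 and 94.2 FPKM (-1.16). The large core proteins and the Rieske protein were not called at Zt +6. Uqcrc1 was at 29.7 and 24.5 FPKM (-0.27), Uqcrc2 at 17.8 and 24.5 FPKM (0.44) and Uqcrfs1, the Rieske iron-sulfur protein, at 17.6 and 15.8 FPKM (-0.15). At Zt +16 all 3 were called higher in Snord116del mice, with Uqcrfs1 at 22.1 and 37.3 FPKM (0.73).

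Complex IV showed the set's pattern in its housekeeping subunits. Cox6a1 was at 1610 FPKM in WT and 754 FPKM in Snord116del mice at Zt +6 (-1.09) and at 2970 and 5270 FPKM at Zt +16 (0.83). Cox4i1, the ubiquitous form of the largest nuclear subunit, was at 794, 301, 1240 and 2140 FPKM in WT Zt +6, Snord116del Zt +6, WT Zt +16 and Snord116del Zt +16. Cox5a was at 115, 52.7, 190 and 274 FPKM in the same order, and Cox5b at 305, 192, 475 and 679 FPKM. Both were lower in Snord116del mice at Zt +6 (-1.11 and -0.67), and at Zt +16 neither reached 1.5-fold.

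Paralogs of the complex IV subunits differ in the tissues they are known for, and in this cortex the ubiquitous form was always the more abundant. Cox4i2, the form induced by low oxygen in lung, was at 0.182, 1.05, 0.0389 and 0.0789 FPKM in the order given above, and thus below the minimum mean. Cox6a2 stayed between 1.48 and 2.86 FPKM, and Cox6b2, the testis form, was at 3.42, 2.73, 4.17 and 9.17 FPKM beside 254, 134, 294 and 574 FPKM for Cox6b1. Cox8b, the muscle form, was at 2.47, 1.63, 2.46 and 4.00 FPKM beside 771, 403, 1130 and 2160 FPKM for Cox8a, and Cox8c, known from testis, was listed at 0 in Snord116del mice at Zt +6 and at most at 0.110 FPKM elsewhere.

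Cox7a1 moved with the abundant genes despite its low level, at 11.4, 5.12, 22.2 and 41.8 FPKM, and was called in all 4 comparisons. Its relatives were Cox7a2, at 228, 104, 353 and 556 FPKM, and Cox7a2l, which takes part in joining complexes III and IV, at 32.9, 24.6, 46.6 and 82.6 FPKM. Of 6 muscle markers, Ckm, Myh4, Tnnt3 and Myh6 were at 0.151 FPKM or less in every group, Myl1 at 0.666 FPKM or less, and Acta1 between 2.04 and 5.61 FPKM. Ndufa4 carries a complex I symbol though its product is counted with complex IV, and was at 168, 123, 226 and 286 FPKM, called in neither genotype comparison. Ndufa4l2 was at 0.952 FPKM or less in all groups.

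**Figure D4:**
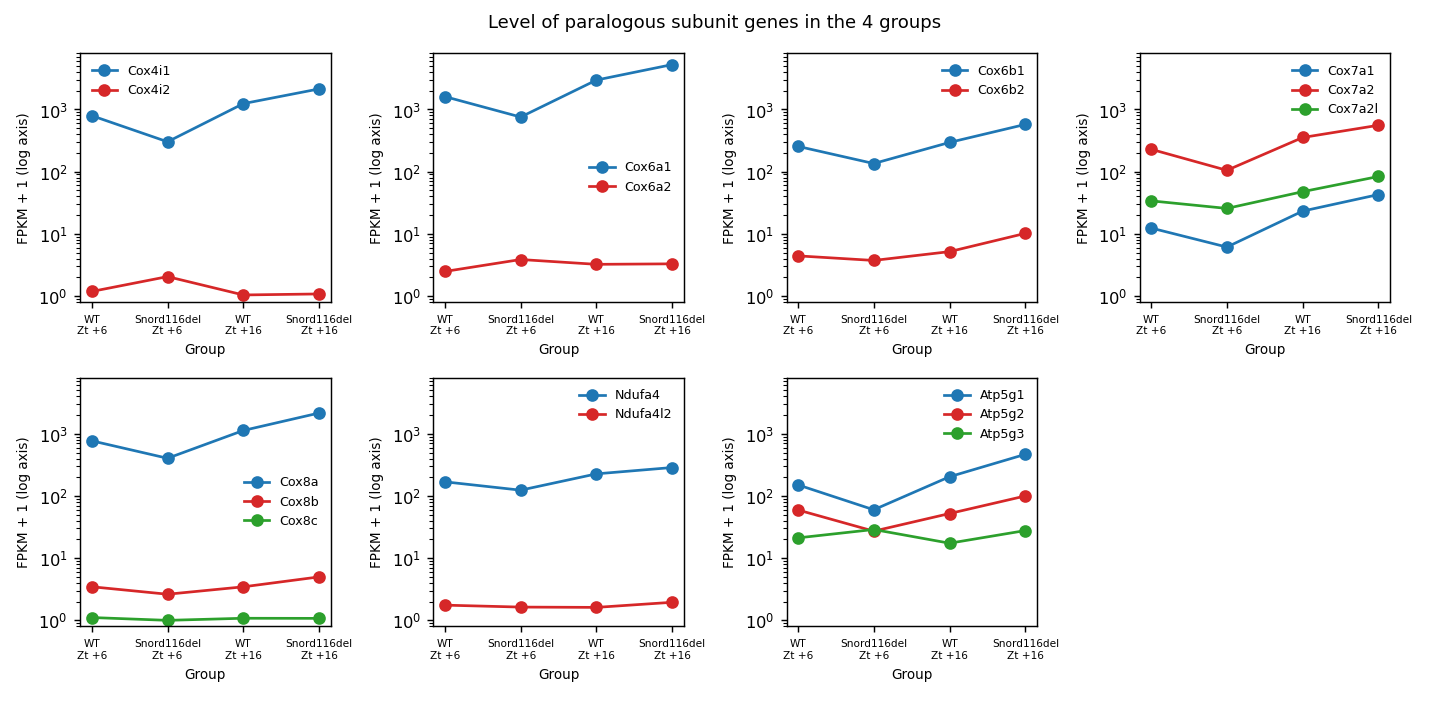
FPKM + 1 (log axis) of paralogous subunit genes in the 4 groups, 1 panel per family; points are the group values and a line joins the points of 1 gene. Cox4i1, Cox6a1, Cox6b1, Cox8a and Ndufa4 lie far above their paralogs in every group, while Atp5g2 (26.2 FPKM) and Atp5g3 (27.9 FPKM) meet in Snord116del at Zt +6.

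In the ATP synthase, the difference at Zt +6 ranged from -1.81 in Atp5d to 0.45 in Atp5g3, and Atp5b, Atp5f1, Atp5j and Atp5g3 were the 4 genes not called. Atp5b, the catalytic beta subunit, was at 283 FPKM in WT and 230 FPKM in Snord116del mice at Zt +6 (-0.29, not called) and at 419 and 637 FPKM at Zt +16 (0.60). Atp5a1, the alpha subunit, was at 213, 136, 313 and 496 FPKM, lower at Zt +6 (-0.64), and Atp5c1, the gamma subunit, at 62.2, 38.3, 82.2 and 118 FPKM (-0.68). Atp5k, of the membrane part, stood at -1.44.

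The same c subunit is encoded by 3 genes, and these did not move alike. Atp5g1 was at 150, 59.0, 203 and 467 FPKM, lower at Zt +6 (-1.33) and higher at Zt +16. Atp5g2 was at 58.6, 26.2, 51.2 and 99.1 FPKM (-1.13 at Zt +6). Atp5g3 was at 20.2, 27.9, 16.4 and 26.8 FPKM, and its difference at Zt +6 was 0.45, not called. The values of Atp5g1 and Atp5g2 are uncertain, because 87.6% and 100% of the 31-base words of their transcripts also occur elsewhere in the mm9 genome, against 0.585% for Atp5g3, and how reads that fit several places were assigned is not given in the sources used here.

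Such copies were common. More than 50% of the words had a copy elsewhere in 12 genes, which besides Atp5g1 and Atp5g2 were Atp5l, Ndufs5, Atp5h, Uqcrb, Cox7c, Cox5b, Cox7a2l, Ndufab1, Ndufs3 and Uqcr11, and all their values are uncertain for the same reason. Without the 12, 40 of 70 tested genes were lower at Zt +6 and 6 higher, with the median still at -0.73. At Zt +16, 52 of the 70 were higher. Among the 43 tested genes with under 5% of words copied, 19 were lower and 6 higher at Zt +6 (median -0.40).

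Complex II, the citric acid cycle and other assembly factors had higher medians than the set at Zt +6, and also lower levels. Their median levels in WT mice at Zt +6 were 14.2, 12.1 and 2.5 FPKM, against 85.3 FPKM for the set. Genes of the set under 30 FPKM in WT mice at Zt +16 had a median difference of 0.25 at Zt +6, and all tested genes at that level 0.64. Of all tested genes, 49.3% were called higher and 7.62% lower. The part of level in this contrast was not tested. Of the 4 complex II genes, 0 were lower and 1 was higher (median 0.46): Sdha, the flavoprotein, was at 20.3 and 28.5 FPKM, Sdhb at 22.0 and 21.3 FPKM, Sdhc at 5.34 and 11.2 FPKM and Sdhd at 8.00 and 11.3 FPKM. Neither Cycs, the soluble cytochrome c (7.01 and 8.71 FPKM), nor Cyc1, the cytochrome subunit of complex III (18.8 and 17.1 FPKM), was called. Of 13 genes of the citric acid cycle, 6 were higher and 0 lower (median 0.52), close to the median of all tested genes. Of 21 other assembly factors, 7 were higher and 1, the copper chaperone Cox17, was lower, at 119 and 41.8 FPKM. Atpif1, the inhibitor of the ATP synthase, was at 547, 153, 1010 and 1900 FPKM in the 4 groups, with a difference of -1.83 at Zt +6.

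Of 12 tested regulators of mitochondrial biogenesis, 6 were higher and 1 lower at Zt +6, shares near the 49.3% and 7.62% of all tested genes. Ppargc1a, the coactivator of the program, was at 1.72 and 6.26 FPKM at Zt +6 (1.42) and 0.902 and 1.07 FPKM at Zt +16. Nrf1 was at 1.55 and 2.27 FPKM (0.36) and Tfam, a factor in the transcription and packaging of mitochondrial DNA, at 2.30 and 2.87 FPKM (0.23). The 1 gene called lower was Esrra, a nuclear receptor that binds many respiratory genes, at 19.8 and 6.53 FPKM (-1.46), followed by 24.2 and 38.5 FPKM at Zt +16. The median level of the tested regulators in WT mice at Zt +6 was 1.62 FPKM, against 85.3 FPKM for the respiratory chain set.

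Genes of 3 other large complexes gave medians between that of the set and that of all genes at Zt +6. Of 74 tested mitochondrial ribosomal protein genes 29 were lower and 1 higher (median -0.41), of 83 cytosolic ribosomal protein genes 33 and 6 (-0.43), and of 36 proteasome genes 9 and 7 (-0.20). At Zt +16, 33, 56 and 15 of them were higher, with medians of 0.55, 0.76 and 0.54. Against these, 59.8% of the respiratory chain genes were lower at Zt +6. The differences between the lists were not tested.

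**Figure D5:**
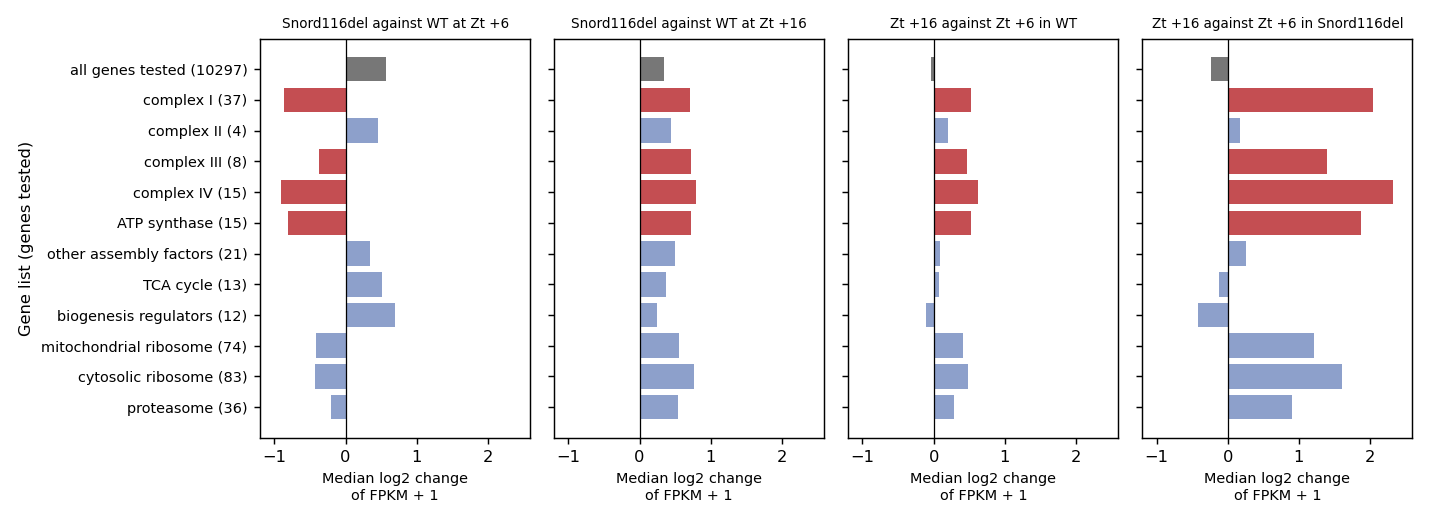
Median log2 difference of FPKM + 1 in the 4 comparisons for complexes I, III and IV and the ATP synthase (red), related gene lists (blue) and all tested genes (grey), with the number of genes tested in parentheses. At Zt +6 the red bars run from -0.37 to -0.91 while complex II (0.46) and the citric acid cycle (0.52) lie on the other side of 0.

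The tissue markers and the targeted locus bear on these values as follows. The 6 neuronal markers differed in level and pattern, and the most abundant, Snap25, was at 481, 590, 417 and 545 FPKM in the 4 groups. Syt1 was at 42.8, 134, 19.4 and 28.0 FPKM, and Gad2 at 5.36, 15.3, 6.1 and 8.24 FPKM. The 6 muscle markers summed to between 2.64 and 6.39 FPKM. In Snord116del mice at Zt +6, 6 of 6 astrocyte, 4 of 4 endothelial, 4 of 5 microglial, 3 of 6 oligodendrocyte and 4 of 6 neuronal markers were called higher, against 49.3% of all tested genes, beside the lower respiratory chain genes. The summed FPKM in the 4 groups was 98.2, 305, 53.5 and 78.9 for astrocyte markers, 678, 946, 550 and 756 for neuronal markers and 5.06, 15.9, 2.68 and 2.99 for endothelial markers. The part of cell makeup in the differences was not tested. All 3 Snord116 entries were listed at 0 in all 4 groups, WT included, so the table offers no check of the deletion.

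Peaks of the 116HG transcript were counted at these genes, as the study sought the places it binds. A peak of WT replicate 1 with a replicate 2 peak within 10 kb was counted as replicated. Such a peak lay inside or within 2 kb of 14 of the 86 genes (16.3%), against 10.9% of 21853 annotated genes and 18.0% of the tested ones. The 14 genes were Atp5g1, Atp5g2, Atp5g3, Atp5l, Atp5o, Cox5a, Ndufa13, Ndufaf1, Ndufb11, Ndufb2, Ndufb3, Ndufb7, Ndufs4 and Uqcr10. Atp5o counts through a wide annotated span, chr16:91684643-91931932 (mm9, minus strand). Its replicated peaks lay in introns, between 91719518 and 91729863, far from the annotated start. In the 2 replicates taken alone, 80 (93.0%, against 93.6% of tested genes) and 5 (5.81%, against 17.5%) of the 86 genes had a peak. In the controls, 1 gene (1.16%, against 2.53% of tested genes) had one with the nonspecific probe in WT brain. With the 116HG probe in Snord116del brain 1 gene had one (1.16%, against 2.86% of tested genes). With the nonspecific probe in Snord116del brain 6 genes had one (6.98%, against 10.6% of tested genes). Among the 14 genes, Atp5g2 also had the control peak of WT brain. Atp5o and Cox5a also had control peaks with the nonspecific probe in Snord116del brain. The middle of 26 of the 41 replicated peaks fell in an exon, and the same share over all replicated peaks was not computed.

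Direct overlap of the replicates was found at 1 gene of the set (against 3.33% of all annotated genes), Ndufb3, an accessory subunit of complex I, whose level was 70.9, 36.3, 106 and 163 FPKM. Its replicate 1 peak, of 90.7-fold over input, lay in an intron at chr1:58650845-58650950 (mm9) within a replicate 2 peak at chr1:58650837-58650961. The sequence of the latter is shown because it is the only shared stretch at any of these genes, on the plus strand and with the replicate 1 peak in capitals.
Ndufb3 intron: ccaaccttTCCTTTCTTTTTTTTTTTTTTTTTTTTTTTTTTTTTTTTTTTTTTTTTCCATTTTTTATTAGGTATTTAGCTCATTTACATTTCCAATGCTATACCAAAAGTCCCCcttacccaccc
It holds a long run of T, and the middle 31 bases of the replicate 1 peak occur at 5761 places in the mm9 genome on either strand. With the replicates required to lie within 2 kb, 3 genes of the set had a replicated peak, against 5.41% of all annotated genes.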

How the data were processed

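RNA was measured in the cortex of 9 mice and ChIRP DNA in 5 brain libraries with peak lists. For the deposited FPKM values, the authors aligned reads to mm9 with TopHat2 under a reference annotation and ran Cuffdiff, which gave 1 value per group. The deposited table also holds the authors' fold changes, q-values and significance calls, which were not used. For the peaks, the authors aligned with Bowtie2 and called peaks with MACS in each library against WT input, and the deposited ratio is fold over input (1 list has positions only). The submitters' processing notes name CASAVA 1.8.0, TopHat2 2.0.5, Cuffdiff 2.0.2, Bowtie2 2.0.0 and MACS 1.4.2. The strand setting and the handling of reads with several matches are not given in the sources used here. The labels of some Zt +6 mice name an earlier version of the table, which was not used here.

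Group values were compared on log2(FPKM + 1) over genes averaging 1 FPKM or more, by a 1.5-fold rule with no test, in Python 3.11.15 (with pandas 2.3.3, numpy 2.4.6, statsmodels 0.14.6 and matplotlib 3.10.9). This scale understates the difference of low genes. The fold rule was run on simulated group values with set changes and no spread between mice. That run bears on no call above. Gene positions, transcript lengths (median over coding transcripts) and 31-base words came from the mm9 reference (NCBIM37) and GENCODE annotation, promoters from RefSeq. The genes named are the 5 with the largest differences each way per comparison, the 3 most abundant per complex, core subunits, paralogs, genes with a replicated peak, and complex II, cytochromes, Ppargc1a, Nrf1 and Tfam. Ndufs1, Cox17, Esrra, Atpif1 and the other genes named beyond this rule were chosen after their values were seen or serve as markers. A gene that the rule covers is not reported here. The genes and lists were chosen with earlier results of these data known. Alternatives were other pseudocounts, filters, scales, folds and length trends, and for peaks other distances and single replicates.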

Additional observations from a re-analysis of the deposited data

Results flagged for a closer look

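The difference between genotypes had opposite directions at the 2 times in 42 genes, which were called lower in Snord116del mice at Zt +6 and higher at Zt +16. By complex these were 21 of 37 tested genes of complex I, 3 of 8 of complex III, 9 of 15 of complex IV and 9 of 15 of the ATP synthase. They stand out because the same contrast points in opposite directions at the 2 times. The share of all tested genes with this pattern was 4.55%. The count of 42 held with a mean of at least 5 FPKM. It fell to 10 with the same median, to 5 with the length trend subtracted, and to 0 with the same total or with quantile normalization. With 1 value per group, this difference between the times was not tested.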

How the results depend on the processing

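The count of 49 genes lower in Snord116del mice at Zt +6 stayed within 1.5 times under 9 of 11 alternatives, with 29 at 2-fold and 31 with the trend on the longest transcript subtracted. The share of all tested genes called lower did not stay so. It was 7.62% in the main setting, 24.8% with the same median, 20.6% with quantile normalization and 15.5% with the length trend. At 2-fold it was 3.05%, and with the longest-transcript trend 13.4%. The count of 6 higher became 2 with a mean of at least 5 FPKM, 1 with the same median, 2 at 2-fold, 3 with the length trend, 2 with quantile normalization and 3 without assembly factors and other non-subunits. At Zt +16 the 62 higher became 11 with the same median, 1 with the same total, 10 at 2-fold, 8 with the length trend, 7 with the longest-transcript trend (and 1 lower in place of 0) and 1 with quantile normalization. The share of all tested genes called higher was 19.0% in the main setting and lay between 0.298% and 1.25% under these alternatives. Between the times in WT, the 28 higher became 47 with the same median, 1 with the same total, 1 at 2-fold, 12 and 8 with the length trends and 3 with quantile normalization, and the 2 lower became 1 with the same median, 5 with the same total, 1 at 2-fold and 3 with the longest-transcript trend. In Snord116del, the 72 higher stayed within 1.5 times under every alternative, and the 3 lower became 1 with a mean of at least 5 FPKM, 9 with the same total, 6 and 7 with the length trends and 1 without non-subunits. The share of all tested genes called higher was 25.0% in the main setting. It ran from 7.96% with the same total to 43.1% with a mean of at least 5 FPKM. The genes with a replicated peak were 14, and 3 with replicates within 2 kb, 1 with direct overlap, 5 without replicate 1 and 80 without replicate 2. Quantile normalization, the longest-transcript trend and the 2 subsets were chosen after seeing the data.

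Of 100 named values, the called ones that changed sign were, with the same total at Zt +16, Atp5b (-0.06), Cox7a2 (-0.01), Ndufv1 (-0.05), Ndufv2 (-0.05) and Uqcrq (-0.02), and with quantile normalization Atp5b (-0.06), Cox7a2 (-0.02), Ndufv3 (-0.02) and Uqcr11 (-0.01) at Zt +16 and Cox6a1 (-0.29) between the times in WT. At Zt +6, Cox4nb became -0.34 and -0.24 with the length trends, and Ndufs1 -0.13 with the same median and -0.06 with the length trend. The same median lowers the median of all tested genes at Zt +6 from 0.57 to -0.08. The causes were not tested.

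No paired analysis was possible because the table gives 1 value per group, and for the same reason leaving out single mice was not run. The table carries no read counts and no spread between mice.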
